A study of Mus musculus with 14 samples.

Results

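The genes described are the heat shock proteins and J-domain cochaperones of the mouse, taken by symbol from 2 deposited tables of gene counts. They comprise all Hspa, Hspb, Hspd, Hspe, Hsph and Hsp90 genes, all Dnaja, Dnajb and Dnajc genes, and Cryab, Bag3, Hsf1 and Hsf2. The rule found 73 members among the 16821 genes of the first table and 72 among the 16095 genes of the second, which lacks Hspb2. By family the 73 are 7 small heat shock proteins, 41 HSP40 proteins, 5 of the HSP60 family, 14 of the HSP70 family, 3 of the HSP90 family and 3 regulators (Bag3, Hsf1 and Hsf2). Of these, 5 are pseudogenes, namely Hspd1-ps3, Hspd1-ps4, Hspe1-ps3, Hspa9-ps1 and Dnajc19-ps. Expression was tested for 66 members in the first table and 70 in the second. The 7 members under the mean of 10 that the test required in the first table were Hspb2, Hspb7, Hspa12a, Hspd1-ps4, Hspe1-ps3, Hspa9-ps1 and Dnajc19-ps, and the 2 in the second were Hspb7 and Dnajc19-ps.

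Chaperones bind unfolded protein and keep it from aggregating. HSP70 proteins do so in cycles of ATP hydrolysis that are started by J-domain (HSP40) proteins and ended by nucleotide exchange factors such as HSPH1 and BAG3, while HSP90 finishes the folding of kinases and receptors, HSP60 folds proteins inside a barrel in the mitochondrion, and small heat shock proteins hold unfolded clients without ATP. Heat shock factor 1 switches many of these genes on through heat shock elements, and NRF2 switches on its targets through antioxidant response elements.

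All tumours were liver tumours (hepatocellular carcinoma) of mice driven by the oncogene MYC, with the cell type labelled as hepatocyte. The first table holds 4 sgGFP tumours, edited with a guide against GFP as the control, 3 sgCul3 tumours and 3 sgKeap1 tumours. KEAP1 and CUL3 form the ligase that marks NRF2 for breakdown, and the guides were meant to activate NRF2. The second table holds 2 sgNrf2 tumours (A and B), in which editing hit the ETGE motif through which NRF2 binds KEAP1, and 2 controls (A and B), whose labels call them repeats of the sgGFP tumours numbered 2 and 4. The labels used here do not give how MYC was delivered or the strain, age and sex of the mice. They also do not say that each tumour came from its own animal, so p-values measure the spread between these tumours. In bulk tissue, fewer cells of a type and less RNA per cell cannot be told apart.

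Depth was 6333025 to 12008223 counted reads per library in the first table and 17819333 to 20848578 per library in the second. It was not even over the groups of the first table. The sgGFP tumours had 10739965 to 12008223 reads, while sgCul3 tumour 1 had 6333025 and sgKeap1 tumours 2 and 3 had 6505295 and 6754550. The part of depth in the results below was not tested. Keap1 was at 287 to 462 in sgKeap1 tumours and 582 to 721 in sgGFP tumours (adjusted p = 0.048), Cul3 at 163 to 676 in sgCul3 and 935 to 1372 in sgGFP tumours (adjusted p = 0.051), and Nfe2l2, which encodes NRF2, at 1486 and 1615 in sgNrf2 tumours against 1844 and 1397 in controls. The NRF2 target Nqo1 was at 1780 to 7498 in the edited tumours of the first table and at 17.5 to 110.1 in sgGFP tumours. Of the 9 hepatocyte markers, 8 were in each table and none of these was at 0 in a whole group. Their summed level was 122300 to 329981 in sgGFP, 112166 to 313512 in sgCul3 and 155156 to 1187242 in sgKeap1 tumours. It was 447192 to 711106 in controls and 324386 to 405342 in sgNrf2 tumours, which did not overlap. None of the 8 was called in any comparison. Markers of other cells moved with the groups. Erythroid genes called lower numbered 3 of 10 in sgCul3, 5 of 10 in sgKeap1 and 8 of 10 in sgNrf2 tumours, and neutrophil genes 0, 7 and 3 of 10. The summed level of the erythroid genes was 5059 to 15146 in sgGFP, 430.0 to 11328 in sgCul3 and 1981 to 2185 in sgKeap1 tumours, and that of the neutrophil genes 798 to 5038, 148 to 2850.1 and 176 to 232. In sgKeap1 tumours Ermap and Ctsg were at 0. Summed cholangiocyte and progenitor markers were at 85.9 to 331 in sgGFP, 237 to 1286 in sgCul3 and 524 to 1688 in sgKeap1 tumours, with 1 and 2 of 5 called higher. In the second table the erythroid sum was 17510.4 to 19476 in controls and 992 to 2029.6 in sgNrf2 tumours, the neutrophil sum 4978 to 10642 and 194 to 636, and the cholangiocyte sum 161 to 592 and 530 to 4350.5, with none at 0. Summed endothelial markers were at 649.7 to 990.4 in sgGFP and 346 to 520.2 in sgCul3 tumours (1 of 6 called lower), and at 1199.8 to 1262 in controls and 2274 to 2567 in sgNrf2 tumours (1 of 6 called higher). Fibroblast and stellate markers were at 1074 to 2362 in sgGFP, 759 to 1797 in sgCul3 and 2199 to 3971 in sgKeap1 tumours (0 of 7 called). They were at 2168 to 2240.1 in controls and 3266 to 4828 in sgNrf2 tumours (1 of 6 called higher), and lymphocyte markers at 58.2 to 111 and 218 to 250.9 (0 of 4 called). Macrophage markers were at 921 to 2820 and 2922 to 3223 (2 of 6 called lower). The part of these cells in the results below was not tested.

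At baseline the most abundant members were the constitutive folding machines. Per kb of exon, the sgGFP tumours held the most Hsp90ab1, the constitutive cytosolic HSP90, at a mean scaled count of 9067 per kb, followed by the mitochondrial HSP70 Hspa9 at 3342 and the HSP90 of the endoplasmic reticulum, Hsp90b1, at 2712. Among all genes of the first table these 3 ranked 35, 117 and 141. The controls of the second table put the same 3 genes on top, with Hsp90b1 before Hspa9. Next in the sgGFP tumours came the HSP70 of the endoplasmic reticulum Hspa5 at 2505 per kb, Hspd1 at 2446, Hspe1 at 1584 and the constitutive cytosolic HSP70 Hspa8 at 988. Dnaja2 at 953 per kb was the most abundant J-domain protein. The ranges of Hspa9, Hsp90b1, Hspa5 and Hspd1 overlapped, so their order is not resolved by these tumours. The summed level of the small heat shock proteins was 136 ± 19.9 per kb (SD, n = 4) in sgGFP tumours, 0.462% of the summed level of all members. It was 558 ± 158 per kb (SD, n = 3) in sgCul3 tumours and 1007 ± 145 per kb (SD, n = 3) in sgKeap1 tumours, where it made up 1.81% and 3.69%. Most of the difference was Hspb8, whose mean was 31.9, 419.6 and 813 per kb in the 3 groups. The HSP40 family made up 19.2%, 19.2% and 22.9% in the 3 groups.

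**Figure D1:**
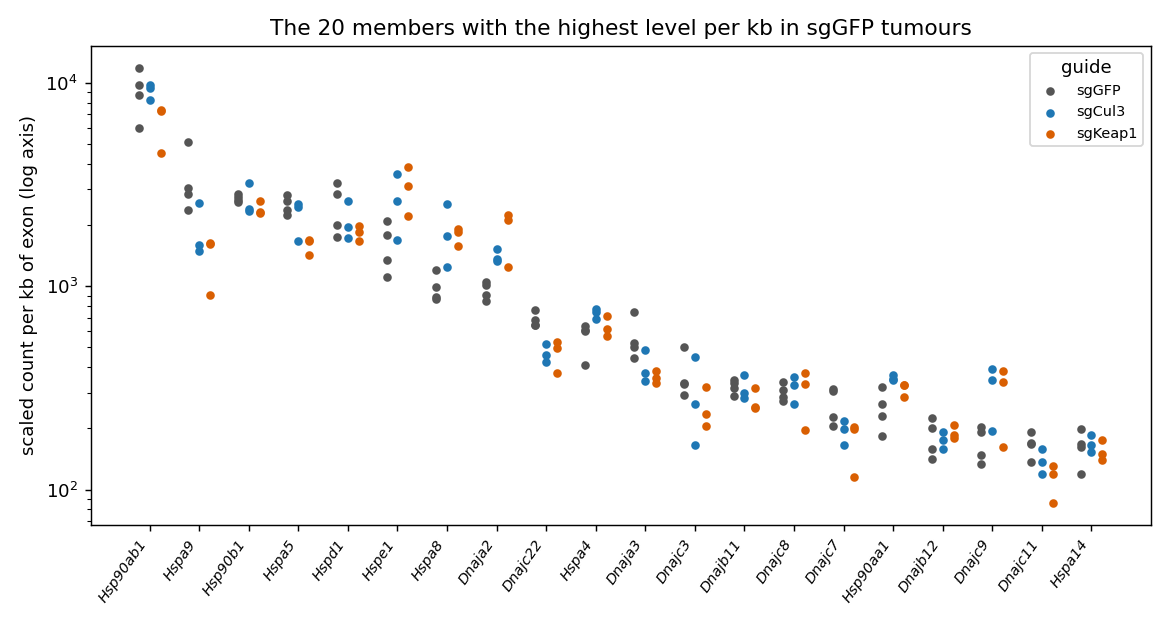
Scaled count per kb of exon (log axis) of the 20 members with the highest mean in sgGFP tumours, 1 point per tumour of the first table, coloured by guide. Hsp90ab1 lies highest, and Hspa8, Dnaja2 and Hspe1 lie higher, and Hspa9 lower, in most edited tumours than in sgGFP tumours.

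Few members passed the test in each comparison. A gene was called at an adjusted p under 0.05 (Benjamini-Hochberg over all genes tested). In sgCul3 against sgGFP tumours, 2 of 66 members were called higher and none lower, where 2.2% of all 13045 genes tested were called, 1.35% higher and 0.851% lower. In sgKeap1 against sgGFP tumours, 6 were called higher and 2 lower, against 7.82% of all genes, 4.45% higher and 3.37% lower. With both guides set against sgGFP as a mean, 8 were higher and 2 lower, against 7.56% of genes, 4.37% higher and 3.19% lower. With libraries scaled to equal totals these were 2 and 1 members, and 397 and 330 of the 13045 genes. The median log2 fold change of the members was 0.07, 0.18 and 0.12 in these 3 comparisons and that of all genes 0.01, -0.01 and 0.00. The 3 comparisons share the sgGFP tumours. Between sgKeap1 and sgCul3 tumours limma called 0 of 66 members, against 0.0613% of genes, 0.0307% higher and 0.0307% lower. At an unadjusted p under 0.05 there were 2 (Dnajb6 and Hspb1, both higher in sgKeap1), and edgeR and DESeq2 also called 0 members. Over all genes edgeR called 3 higher and 3 lower there, and DESeq2 64 and 40. In sgNrf2 against control tumours, 1 of 70 members was called higher and 2 lower, against 4.41% of 13989 genes, 1.9% higher and 2.51% lower. That split became 6 higher and 2 lower with equal totals and 4 higher and 3 lower with quantile normalization. Of all 13989 genes, 874 were higher and 362 lower with equal totals, and 405 and 563 with quantile normalization. With equal totals the median of all genes moved from -0.01 to -0.20 in sgKeap1 against sgGFP and from 0.04 to 0.34 in sgNrf2 against control.

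A second count used the tumours' ranges alone, taking a member as not overlapping where all tumours of one group lay above all of the other. In sgCul3 against sgGFP 12 members were higher and 3 lower in this sense, where 16.2% of genes did not overlap (8.71% higher and 7.54% lower). In sgKeap1 against sgGFP 14 were higher and 12 lower, where 25.8% of genes did not overlap (13.1% higher and 12.6% lower). For both guides 8 were higher and 3 lower, against 9.23% of genes (5.13% and 4.1%). Between sgKeap1 and sgCul3 tumours 5 were higher and 6 lower, against 15.8% (7.52% and 8.24%). In sgNrf2 against control 24 were higher and 13 lower, against 64.0% (33.3% and 30.7%).

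With the 2 sgGFP tumours that have no repeat (1 and 3) as the only controls, Hspb8 alone was called in the 3 comparisons with sgGFP, and the other calls of the first table described below were lost, with adjusted p from 0.059 to 0.24. Of 13010 genes, 35 were then called higher and 11 lower in sgCul3, 224 and 101 in sgKeap1 and 138 and 43 for both guides.

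**Figure D2:**
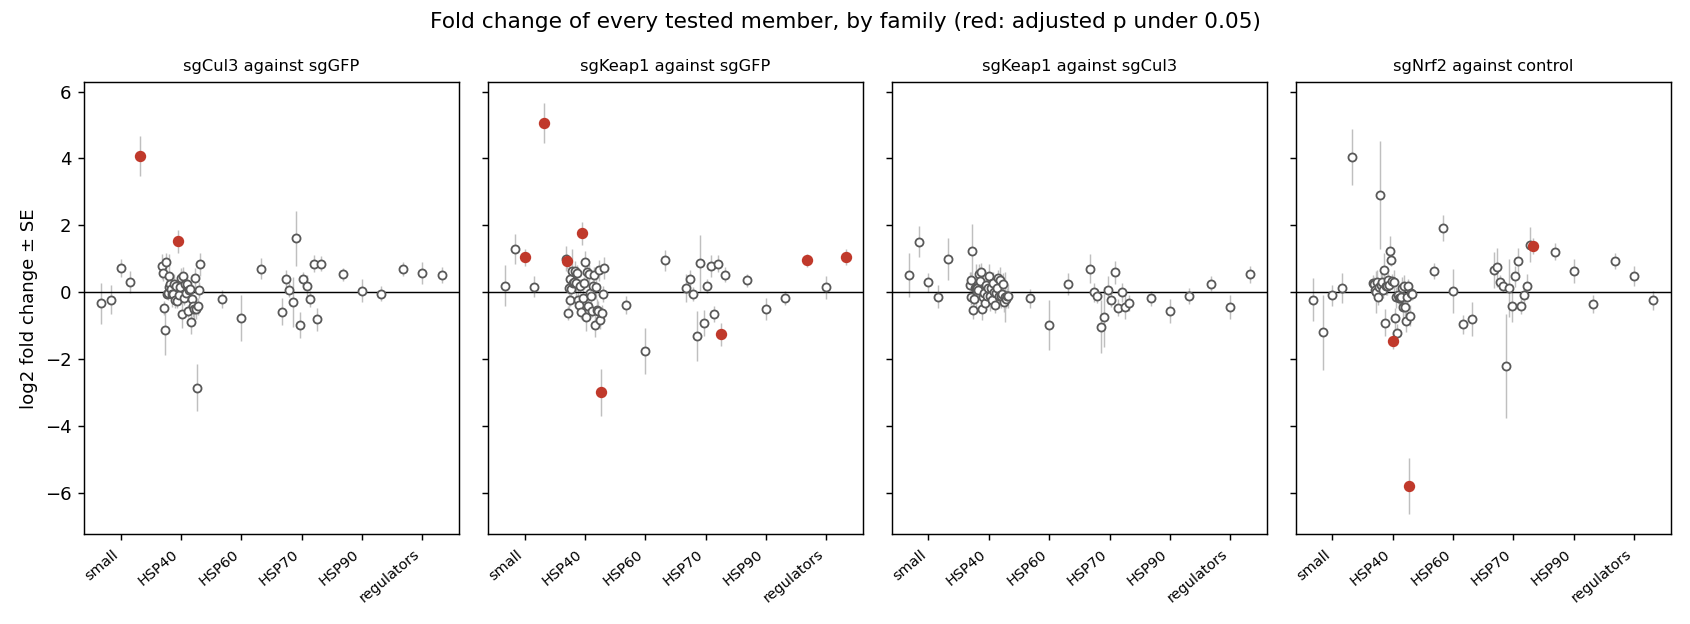
Log2 fold change with its standard error of every tested member, grouped by family, in 4 comparisons. Red points are members with an adjusted p under 0.05 and open points are the others. Hspb8 lies highest among the called members of the 2 comparisons with sgGFP, and Dnajc6 lowest in sgKeap1 against sgGFP and in sgNrf2 against control.

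Among the small heat shock proteins, Hspb8 rose most. HSPB8 binds misfolded clients together with BAG3 and hands them to autophagy. Its gene lies on the minus strand at chr5:116408491-116422864 (GRCm38). The stretch from 250 bases before its start site to 29 after it (chr5:116422835-116423114, RefSeq, GRCm38.p6, minus strand) is shown because Hspb8 has the largest rise, with capitals on the core of 2 heat shock units (GAANNTTC or TTCNNGAA).
Hspb8: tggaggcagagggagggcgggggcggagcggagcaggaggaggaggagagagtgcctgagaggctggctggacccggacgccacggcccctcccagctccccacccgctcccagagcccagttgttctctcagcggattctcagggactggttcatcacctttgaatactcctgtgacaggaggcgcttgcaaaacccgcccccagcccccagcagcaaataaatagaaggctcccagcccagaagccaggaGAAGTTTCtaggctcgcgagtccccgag
The core lies 2 to 9 bases after the start site, counted as 0. No match to the antioxidant response element core (TGACNNNGC or GCNNNGTCA, read on both strands) or to the heat shock element of 3 units (GAANNTTCNNGAA or TTCNNGAANNTTC) lay in the 300 bases searched, which says only that these letters are not in this window.

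Scaled counts of Hspb8 were 16.2, 21.5, 100.1 and 111 in the 4 sgGFP tumours, 901, 1016 and 538 in the 3 sgCul3 tumours and 1435, 1816 and 1505 in the 3 sgKeap1 tumours. Every edited tumour was above every sgGFP tumour, and the sgGFP tumours themselves fell into a low pair (1 and 2) and a higher pair (3 and 4). The log2 fold change was 4.07 ± 0.59 (SE) in sgCul3 (adjusted p = 0.0072) and 5.07 ± 0.59 in sgKeap1 tumours (adjusted p = 0.00081). It stayed called under all 19 alternatives of each of these comparisons, with an adjusted p of at most 0.041 and 0.0065. The difference between sgKeap1 and sgCul3 tumours, 1.0 ± 0.64, did not pass (adjusted p = 0.57). Among the libraries of the second table Hspb8 was at 49.6 and 287 in controls A and B and at 2496 and 1587 in sgNrf2 tumours A and B. Again the groups did not overlap, but the log2 fold change of 4.04 ± 0.85 missed the threshold (adjusted p = 0.064). Over 13 alternatives its adjusted p ran from 1.6e-05 with DESeq2 to 0.19 without sgNrf2 A, and 5 passed: DESeq2, equal totals (0.044), the replicate block (0.049) and leaving out control A (0.027) or B (0.044).

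The other small heat shock proteins had smaller fold changes. Hspb11, named in this family but a component of intraflagellar transport, was at 73.5 to 109.7 in sgGFP tumours, 124 to 195 in sgCul3 tumours and 145 to 235 in sgKeap1 tumours, with no overlap. It was called in sgKeap1 (1.04 ± 0.27, adjusted p = 0.039) and in both guides together (0.89 ± 0.22, adjusted p = 0.038). The sgKeap1 call was lost without any sgGFP tumour (adjusted p 0.052 to 0.10) and without sgKeap1 tumour 2 (0.15) or 3 (0.13), and also with the length trend removed (0.055), equal totals (0.085) and the 2 groups alone (0.053). The call for both guides was lost without any sgGFP tumour (0.058 to 0.11), sgCul3 tumour 1 (0.091) or 2 (0.076), or sgKeap1 tumour 2 (0.070) or 3 (0.089), and with equal totals (0.062), the length trend removed (0.055) and the replicate block (0.051). Hspb1, the stress-induced small heat shock protein, was at 15.2 to 27.0 in sgGFP, 9.7 to 27.5 in sgCul3 and 30.3 to 79.1 in sgKeap1 tumours, and its log2 fold change of 1.30 ± 0.44 in sgKeap1 did not pass (adjusted p = 0.087). Cryab, the alpha-B crystallin of lens and muscle, was at 3.9 to 38.1 in the 10 tumours of the first table with overlap of all groups. In sgNrf2 against control tumours the log2 fold changes of Hspb11, Hspb1 and Cryab were -0.09, -1.20 and -0.22. For each of these genes the sgNrf2 tumours overlapped the controls, and none was called there. Summed markers of striated muscle, which also express Cryab, Hspb6 and Hspb8, were at 74.4 to 134 in sgGFP, 122 to 136 in sgCul3 and 121 to 163 in sgKeap1 tumours, and none of the 5 tested was called. Those of smooth muscle, which also expresses small heat shock proteins, were at 239 to 636 in sgGFP, 402 to 517 in sgCul3 and 395 to 568 in sgKeap1 tumours, and at 501 to 792 in controls and 1082 to 1411 in sgNrf2 tumours, where Hspb8 was also high. None of the 4 tested was called in any comparison, and their part in the levels of Hspb8 was not tested.

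**Figure D3:**
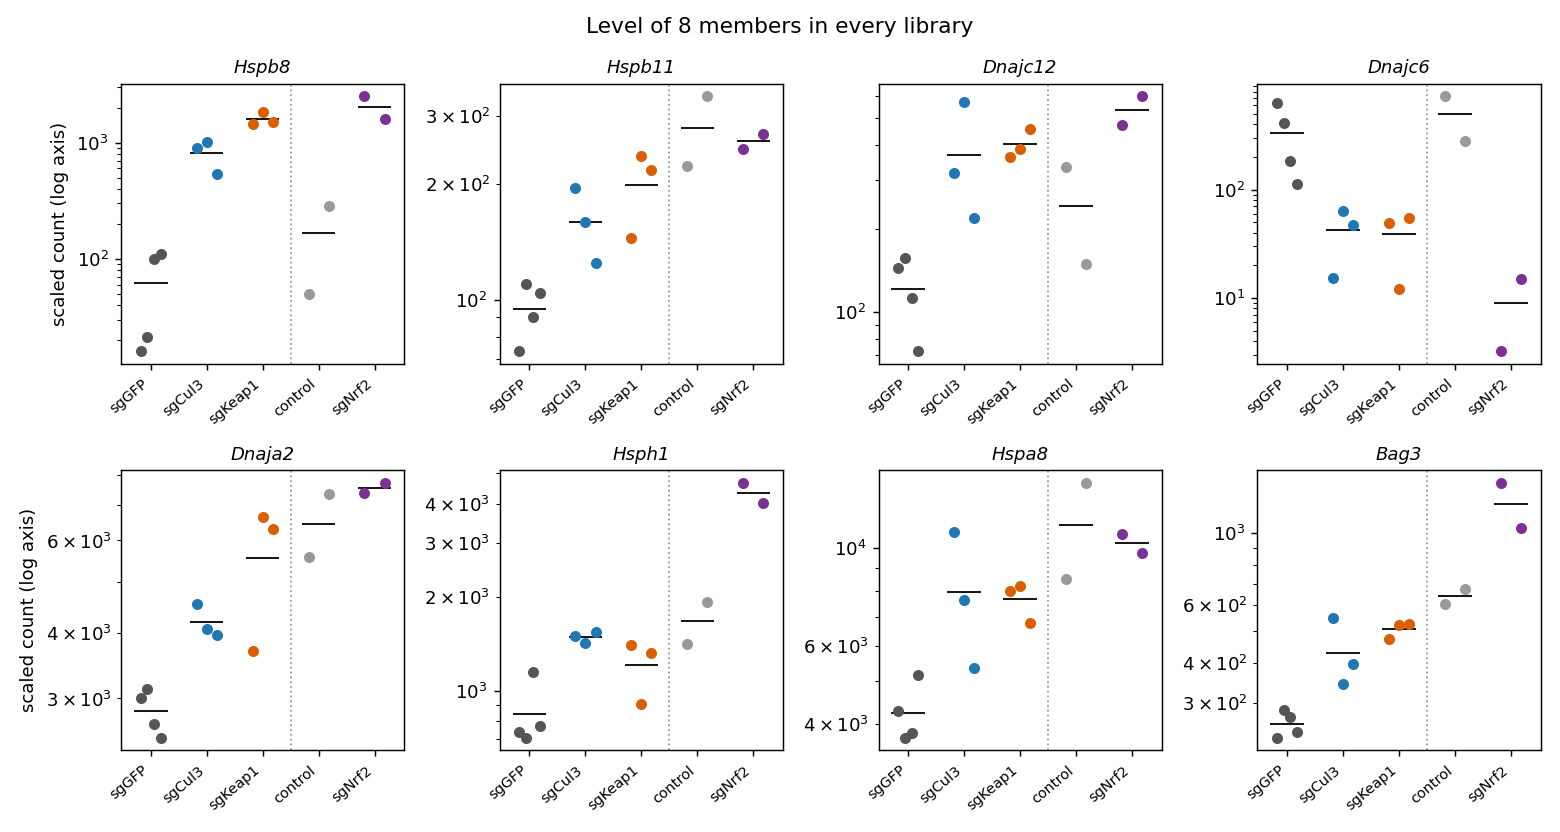
Scaled count (log axis, a scale of its own for each gene) of 8 members in every library, with the group mean as a line. The dotted line parts the 2 tables, which were scaled separately. All edited tumours of the first table lie above all sgGFP tumours for Hspb8, Hspb11, Dnajc12, Dnaja2, Hspa8 and Bag3, and below them for Dnajc6.

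Of the 40 J-domain proteins tested in the first table, Dnajc12, Dnaja2, Dnajc6 and Dnajc22 passed in at least 1 comparison. DNAJC12 works with HSP70 on the hydroxylases of aromatic amino acids. Dnajc12 was at 144, 157, 112 and 72.5 in sgGFP tumours, 318, 571 and 219 in sgCul3 tumours and 362, 387 and 456 in sgKeap1 tumours. All 6 edited tumours were above the 4 sgGFP tumours. The log2 fold change was 1.53 ± 0.34 in sgCul3 (adjusted p = 0.048), 1.76 ± 0.34 in sgKeap1 (adjusted p = 0.014) and 1.65 ± 0.29 for both (adjusted p = 0.0081). The sgCul3 call was lost without any sgGFP tumour (adjusted p 0.060 to 0.12) and without sgCul3 tumour 1 (0.16) or 2 (0.15), but not without tumour 3. It was also lost with the 2 groups alone (0.092), equal totals (0.062), a mean of at least 50 (0.052) and quantile normalization (0.054). Paired by tumour number as a replicate block, to which sgGFP tumour 4 contributes nothing, it had an adjusted p of 0.070, which left 1 member called in sgCul3. The sgKeap1 call was lost without sgKeap1 tumour 3 (0.068). Controls A and B held Dnajc12 at 334 and 149 and sgNrf2 tumours A and B at 474 and 599 (1.25 ± 0.45, adjusted p = 0.14).

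DNAJA2 is a major partner of HSC70 in the cytosol. Its 280 bases around the start site (chr8:85555332-85555611, RefSeq, GRCm38.p6, minus strand) are shown because they hold 2 matches to the antioxidant response element core, in capitals.
Dnaja2: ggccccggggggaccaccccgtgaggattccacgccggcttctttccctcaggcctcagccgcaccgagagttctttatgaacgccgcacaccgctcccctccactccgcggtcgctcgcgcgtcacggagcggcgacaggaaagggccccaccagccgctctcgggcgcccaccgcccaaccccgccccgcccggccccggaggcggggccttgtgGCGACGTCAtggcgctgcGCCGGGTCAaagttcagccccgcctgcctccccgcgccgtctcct
Dnaja2 was at 3006, 3130.0, 2679 and 2526 in sgGFP tumours, 4543, 4071 and 3970 in sgCul3 tumours and 3700.5, 6639 and 6320.3 in sgKeap1 tumours. No edited tumour overlapped the sgGFP tumours, and sgKeap1 tumour 1 stood lowest of the edited ones. It was called in sgKeap1 (0.93 ± 0.23, adjusted p = 0.037) and for both guides (0.75 ± 0.19, adjusted p = 0.043), but not in sgCul3 tumours (0.57 ± 0.23, adjusted p = 0.24). The sgKeap1 call was lost without any sgGFP tumour (adjusted p 0.057 to 0.10) and without sgKeap1 tumour 2 or 3 (0.13 each), and with the 2 groups alone (0.060), equal totals (0.10), quantile normalization (0.075) and the replicate block (0.055). The call for both guides was lost without any sgGFP tumour (0.073 to 0.13), sgCul3 tumour 1 (0.097) or 2 (0.078), or sgKeap1 tumour 2 (0.070) or 3 (0.097), and with equal totals (0.089), the length trend removed (0.051), quantile normalization (0.072) and the replicate block (0.081). In sgNrf2 tumours its log2 fold change was 0.24 ± 0.22 (adjusted p = 0.49).

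Dnajc6 fell. It encodes auxilin, the J-domain protein that strips clathrin from vesicles and is best known from neurons. It was at 630.2, 414, 185 and 112 in sgGFP tumours, 15.2, 63.8 and 46.9 in sgCul3 tumours and 49.0, 12.2 and 54.8 in sgKeap1 tumours. The 2 controls of the second table were at 726 and 279.7, and the 2 sgNrf2 tumours were at 3.2 and 14.9, from 4 and 17 reads. Each edited tumour was below each control of its table, and the controls spread over more than the edited tumours on the linear scale. The log2 fold change was -2.99 ± 0.69 in sgKeap1 (adjusted p = 0.029), -2.92 ± 0.59 for both guides (adjusted p = 0.014) and -5.78 ± 0.84 in sgNrf2 tumours (adjusted p = 0.043), while -2.84 ± 0.69 in sgCul3 tumours missed the threshold (adjusted p = 0.062). The sgKeap1 call was lost without sgGFP tumour 1 (0.062), 2 (0.062) or 3 (0.055) or sgKeap1 tumour 2 (0.11) or 3 (0.061), and the sgNrf2 call without control B (0.054), sgNrf2 A (0.060) or sgNrf2 B (0.051). The erythroid and neutrophil sums were also below every control in sgKeap1 and sgNrf2 tumours and overlapped the controls in sgCul3 tumours, and their part in this result was not tested.

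Dnajc15 fell in sgNrf2 tumours. Dnajc15, of the inner mitochondrial membrane, was at 2029 and 2762 in controls and at 813 and 920.4 in sgNrf2 tumours (-1.45 ± 0.23, adjusted p = 0.045). The call was lost without sgNrf2 A (adjusted p = 0.25) or B (0.18). The first table had Dnajc15 at 484 to 929 in sgGFP and 955 to 1608 in sgKeap1 tumours (0.92 ± 0.32, adjusted p = 0.091, 0.030 with the replicate block, which also called it for both guides at 0.049). Dnajc19, the J-domain subunit of the mitochondrial import motor, was at 688 and 985 in controls and at 339 and 365 in sgNrf2 tumours (-1.22 ± 0.26, adjusted p = 0.067). Dnajc22, a membrane J-domain protein, was at 1188 to 1417 in sgGFP and 689 to 981 in the 6 edited tumours of the first table. It was called lower for both guides together (-0.56 ± 0.15, adjusted p = 0.048), a call that was lost with edgeR (0.051), equal totals (0.11), a mean of at least 50 (0.051), no filter (0.055) and the replicate block (0.065), and without any single library but sgKeap1 tumour 1 (0.054 to 0.15). It was at 2561 and 2939 in controls and 2255 and 2595 in sgNrf2 tumours, which overlapped.

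Dnajb1, Dnaja1 and Dnajb9 did not pass in any comparison. Dnajb1, the stress-induced partner of HSP70, was at 235 to 435 in sgGFP, 430.0 to 695 in sgCul3 and 323 to 420 in sgKeap1 tumours (0.92 ± 0.26 in sgCul3, adjusted p = 0.10). Dnaja1 was at 389 to 492 in sgGFP tumours and at 503 to 1770 in the 6 edited tumours, with no overlap (0.89 ± 0.31 for both guides, adjusted p = 0.099). Dnajb9, a J-domain protein of the endoplasmic reticulum and a target of the unfolded protein response, overlapped between all groups, with log2 fold changes of 0.26 ± 0.30 in sgCul3, -0.24 ± 0.30 in sgKeap1 and 0.18 ± 0.27 in sgNrf2 tumours. In the sgNrf2 comparison Dnajc13, an endosomal J-domain protein, was at 988 and 1177 in controls and 2279 and 1988 in sgNrf2 tumours (0.98 ± 0.20, adjusted p = 0.061). Of the 40 HSP40 members tested, 3 did not overlap on the higher and 2 on the lower side in sgCul3, 7 and 8 in sgKeap1, and 10 and 8 in sgNrf2 tumours, where 16.2%, 25.8% and 64.0% of all genes did not overlap.

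In the HSP70 family, Hspa8 and Hsph1 rose and Hspa9 fell, each in part of the comparisons. Hspa8 encodes HSC70, which works in folding, clathrin uncoating and chaperone-mediated autophagy. It was at 4284, 3734, 3822 and 5159.5 in sgGFP tumours, 10886, 7622 and 5362 in sgCul3 tumours and 7991, 8203.5 and 6775 in sgKeap1 tumours. All edited tumours were above all sgGFP tumours, sgCul3 tumour 3 only just. The log2 fold change was 0.86 ± 0.26 in sgCul3 (adjusted p = 0.13), 0.86 ± 0.26 in sgKeap1 (adjusted p = 0.066) and 0.86 ± 0.22 for both guides, which passed (adjusted p = 0.041). That call was lost without sgGFP tumour 1 (0.078), 2 (0.10) or 3 (0.13), sgCul3 tumour 1 (0.081) or 2 (0.077), or sgKeap1 tumour 1 (0.055), 2 (0.067) or 3 (0.070), and with equal totals (0.078) and quantile normalization (0.092). With the replicate block it was called in sgKeap1 tumours too (0.040). Hspa8 was at 8508 and 14008 in controls and at 10738 and 9764 in sgNrf2 tumours, inside the range of the controls.

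HSPH1 is a large HSP70 relative that acts as a nucleotide exchange factor and disaggregase. Its promoter window (chr5:149636286-149636565, RefSeq, GRCm38.p6, minus strand) held both kinds of element. Capitals mark 2 antioxidant response element cores, 1 separate core of 2 heat shock units and, 15 to 27 bases after the start site, the element of 3 units.
Hsph1: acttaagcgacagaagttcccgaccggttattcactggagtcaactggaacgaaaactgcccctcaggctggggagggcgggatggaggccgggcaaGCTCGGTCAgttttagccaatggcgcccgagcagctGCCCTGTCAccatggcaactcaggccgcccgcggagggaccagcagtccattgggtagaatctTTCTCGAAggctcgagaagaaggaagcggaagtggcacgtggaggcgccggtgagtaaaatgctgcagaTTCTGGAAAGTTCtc
Hsph1 was at 739, 708, 1149 and 772 in sgGFP tumours, 1503, 1430.3 and 1547 in sgCul3 tumours and 1407, 906 and 1326 in sgKeap1 tumours. The sgCul3 tumours were all above the sgGFP tumours, and sgKeap1 tumour 2 lay within their range. It was called for both guides (0.69 ± 0.19, adjusted p = 0.048) but not in sgCul3 (0.85 ± 0.22, adjusted p = 0.077) or sgKeap1 tumours alone (0.53 ± 0.22, adjusted p = 0.14). That call was lost with edgeR (0.057), equal totals (0.17), quantile normalization (0.056), the replicate block (0.057), a mean of at least 50 (0.051) and no filter (0.052), and without any single library but sgGFP tumour 3 and sgKeap1 tumour 2 (0.056 to 0.11). Controls held Hsph1 at 1415 and 1931 and sgNrf2 tumours at 4657 and 4008.5, and it was the 1 member called higher there (1.39 ± 0.23, adjusted p = 0.047). The sgNrf2 call was lost with edgeR (0.053), with the length trend removed (0.060), with the replicate block (0.055) and without sgNrf2 A (0.28) or B (0.19).

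Hspa9 encodes mortalin, the HSP70 that pulls proteins into the mitochondrion. It was at 12218.5, 10181, 22109 and 13110.4 in sgGFP tumours, 6420.5, 6871 and 10999 in sgCul3 tumours and 7055, 3916 and 6987 in sgKeap1 tumours. The sgKeap1 tumours were all below the sgGFP tumours, with a log2 fold change of -1.25 ± 0.34 (adjusted p = 0.049), and sgCul3 tumour 3 overlapped them (-0.81 ± 0.34, adjusted p = 0.25). The call was lost with edgeR (0.055), the 2 groups alone (0.064), equal totals (0.051) and no filter (0.054), and without any sgGFP tumour (0.055 to 0.12), sgKeap1 tumour 2 (0.18) or sgKeap1 tumour 3 (0.11). With the replicate block Hspa9 was called lower for both guides as well (0.034). In sgNrf2 tumours Hspa9 was at 33638 and 30296, inside the range of the controls (20854 and 38052). Hspa9, Hspd1, Hspe1 and Dnajc19 have pseudogene copies among the members, so the split of reads between each and its copy is uncertain.

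The inducible HSP70 genes Hspa1a and Hspa1b, near-identical neighbours whose split of reads is uncertain, differed widely between single tumours of a group. Hspa1a was at 8.1 to 8.9 in sgGFP tumours 1, 3 and 4 and at 79.8 in tumour 2, and at 4.1 to 25.7 in the 6 edited tumours. The second table had 146 in control A, the repeat of tumour 2, and 7.6 in control B. Hspa1b was at 36.4, 207, 21.3 and 29.5 in sgGFP tumours and at 356.5, 255, 35.2, 88.3, 93.2 and 83.7 in sgCul3 tumours 1 to 3 and sgKeap1 tumours 1 to 3, and no fold change of either gene passed. Hspa5, the HSP70 of the endoplasmic reticulum that is also known as BiP, was at 9449 to 11883 in sgGFP and 6053 to 7143 in sgKeap1 tumours, which did not overlap, but -0.65 ± 0.23 missed the threshold (adjusted p = 0.10). In sgNrf2 tumours it was at 21949 and 19971 against 27219 and 28872 in controls (-0.42 ± 0.23, adjusted p = 0.28). Hspa4l, a cytosolic relative of Hsph1, was at 369 and 701 in controls and 1108 and 874 in sgNrf2 tumours (0.95 ± 0.37, adjusted p = 0.16).

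The HSP60 family has a pair of genes, Hspd1 for the barrel and Hspe1 for its lid, that lie head to head on chromosome 1. The window of Hspe1 (chr1:55087898-55088177, RefSeq, GRCm38.p6, plus strand) is shown because it spans the RefSeq starts of both. Capitals mark overlapping heat shock units that hold the element of 3 units in both orientations.
Hspe1: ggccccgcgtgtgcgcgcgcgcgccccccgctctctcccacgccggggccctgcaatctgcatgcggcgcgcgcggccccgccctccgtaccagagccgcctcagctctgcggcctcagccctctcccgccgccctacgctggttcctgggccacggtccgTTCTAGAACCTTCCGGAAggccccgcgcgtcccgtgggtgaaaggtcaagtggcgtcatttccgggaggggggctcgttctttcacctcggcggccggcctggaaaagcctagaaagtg
The levels of the pair differed in direction. Hspe1 was at 1643.5, 2631, 1987 and 3079 in sgGFP tumours, 3851, 5252 and 2493.5 in sgCul3 tumours and 3276, 4565 and 5665 in sgKeap1 tumours (0.95 ± 0.31 in sgKeap1, adjusted p = 0.080). With the replicate block Hspe1 was called in sgKeap1 (0.042) and for both guides (0.047). Hspd1 was at 7471, 5282, 8497 and 4604 in sgGFP tumours, 4539, 5144 and 6911 in sgCul3 tumours and 4420.4, 4859 and 5224 in sgKeap1 tumours (-0.38 ± 0.26, adjusted p = 0.35). For the second table, Hspe1 was at 4085 and 6449.5 in controls and 2515 and 2767 in sgNrf2 tumours (-0.96 ± 0.27, adjusted p = 0.10), and Hspd1 at 10654 and 13757 in controls and 18440 and 19418.5 in sgNrf2 tumours (0.64 ± 0.24, adjusted p = 0.15). The sgKeap1 tumours were thus all above the sgGFP tumours for Hspe1, and the sgNrf2 tumours below the controls for Hspe1 and above them for Hspd1, while none of these fold changes passed without the block. Of the tested HSP60 members, limma called 0, with 1 of 3 at an unadjusted p under 0.05 in sgCul3, 2 of 3 in sgKeap1 and 3 of 5 in sgNrf2 tumours. edgeR called 0 in each and DESeq2 0, 1 and 2. Of all 13045 genes DESeq2 called 479 higher and 447 lower in sgCul3 and 1181 and 962 in sgKeap1 tumours. In sgNrf2 tumours it called 1191 and 1460 of 13989. The share of all genes at an unadjusted p under 0.05 is not given here for this or any other such count.

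**Figure D4:**
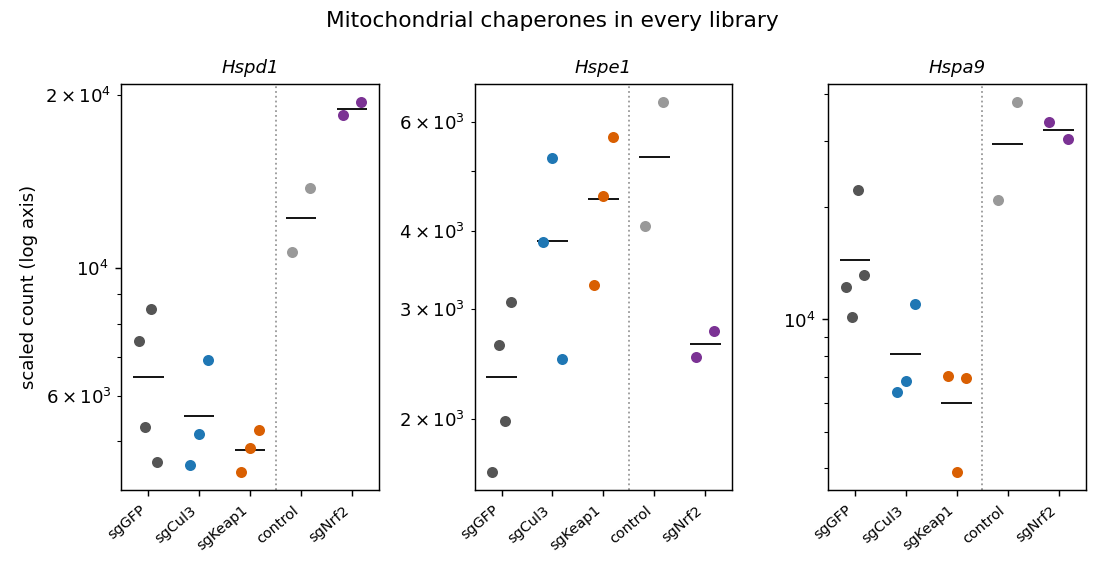
Scaled count (log axis, a scale of its own for each gene) of the mitochondrial chaperones Hspd1, Hspe1 and Hspa9 in every library, with the group mean as a line and a dotted line between the 2 tables. Hspe1 is higher in sgKeap1 than in sgGFP tumours and lower in sgNrf2 tumours than in controls, and Hspa9 is lower in sgKeap1 than in sgGFP tumours.

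The HSP60 and HSP70 fold changes of the second table lay beside a trend over exon length. This length merges all annotated exons of a gene and can exceed that of the transcript expressed. The median log2 fold change in sgNrf2 against control was -1.02 over the 718 genes with up to 1 kb of exon and 0.27 over the 4061 genes with more than 6 kb, and across genes Spearman's rho of fold change with length was 0.28 (13958 genes) and 0.23 over the 70 members. Hspe1 has 1474 bases of exon and Hspd1 2642, Hsph1 7266 and Dnajc15 6513. In sgKeap1 against sgGFP the trend over genes ran the other way, from a median of 0.33 to -0.13, with a rho of -0.17 over 13026 genes. Over the 66 members rho was -0.09 there, and the 16 members with more than 6 kb had a median of 0.35. Genes are not independent replicates, so these values are descriptions. With the trend removed, Hspe1 moved from -0.96 to -0.58 in sgNrf2 and from 0.95 to 0.60 in sgKeap1 tumours, and the pseudogene Hspe1-ps3 from -0.80 to 0.21 in sgNrf2 tumours. Hspd1 moved from 0.64 to 0.78 in sgNrf2 tumours. The sgNrf2 call of Hsph1 was lost, and those of Dnajc6 and Dnajc15 were kept. Reads with more than 1 alignment made up 56.8% and 58.0% of the entries in controls and 45.0% and 46.5% in sgNrf2 tumours.

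None of the 3 genes of the HSP90 family passed in any comparison with limma, where 1 had an unadjusted p under 0.05 in sgCul3, 0 in sgKeap1 and 1 in sgNrf2 tumours. In each of these edgeR called 0 and DESeq2 called 0, 0 and 1. In sgNrf2 tumours DESeq2 called 1191 higher and 1460 lower of all 13989 genes. Hsp90aa1, the stress-inducible cytosolic HSP90, was at 1262, 904.5, 1033 and 720.4 in sgGFP tumours, 1360, 1445 and 1378 in sgCul3 tumours and 1120.4, 1289 and 1284 in sgKeap1 tumours (0.54 ± 0.20 in sgCul3, adjusted p = 0.20). Controls were at 1755 and 2260.4 and sgNrf2 tumours at 5361 and 4018, which did not overlap but missed the threshold (1.22 ± 0.24, adjusted p = 0.059). Its constitutive sister Hsp90ab1 was at 57331 and 36639 in controls and 71600 and 71346.5 in sgNrf2 tumours (0.64 ± 0.36, adjusted p = 0.28). In the first table Hsp90ab1 ranged from 17937 to 35602 in sgGFP and from 13486 to 22091 in sgKeap1 tumours (-0.50 ± 0.34, adjusted p = 0.35). Hsp90b1, known as GRP94, was within 9290 to 13013 in all 10 tumours of the first table (-0.17 ± 0.22 in sgKeap1, adjusted p = 0.64).

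Of the regulators, Bag3 and Hsf2 rose and Hsf1 did not pass. BAG3 links HSP70 and HSPB8 to selective autophagy. Bag3 was at 235, 286, 271 and 244 in sgGFP tumours, 547, 343 and 396 in sgCul3 tumours and 472, 521 and 525 in sgKeap1 tumours. The edited tumours were all above the sgGFP tumours, which lay close together. The log2 fold change was 0.70 ± 0.20 in sgCul3 (adjusted p = 0.10), 0.96 ± 0.20 in sgKeap1 (adjusted p = 0.017) and 0.83 ± 0.17 for both guides (adjusted p = 0.014). The sgKeap1 call was lost without sgKeap1 tumour 2 (0.059) or 3 (0.076) and with equal totals (0.092), and that for both guides with equal totals (0.062) and with sgGFP tumours 1 and 3 as the controls (0.095). Bag3 was at 608 and 673 in controls and at 1429 and 1039 in sgNrf2 tumours (0.93 ± 0.24, adjusted p = 0.086).

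Hsf2, a heat shock factor with roles in development and in proteasome inhibition, was at 356, 511, 335 and 385 in sgGFP tumours, 562, 572.5 and 540.3 in sgCul3 tumours and 553, 1062 and 912 in sgKeap1 tumours. No edited tumour overlapped the sgGFP tumours. It was called in sgKeap1 (1.05 ± 0.24, adjusted p = 0.027) and for both guides (0.78 ± 0.20, adjusted p = 0.043). The sgKeap1 call was lost without sgGFP tumour 1 (0.060) or 3 (0.080) or sgKeap1 tumour 2 or 3 (0.11 each), and with equal totals (0.060). For both guides the call was lost without sgGFP tumour 1 (0.092), 3 (0.14) or 4 (0.080), sgCul3 tumour 1 (0.089) or 2 (0.084), or sgKeap1 tumour 2 (0.071) or 3 (0.096), and with equal totals (0.068). In sgNrf2 tumours Hsf2 was at 640.0 and 930.0 against 781 and 1063 in controls (-0.24 ± 0.29, adjusted p = 0.60, positive with equal totals). Hsf1, the main heat shock factor, was at 304 to 647 in sgGFP, 552 to 789 in sgCul3 and 320.3 to 711 in sgKeap1 tumours, with adjusted p from 0.31 to 0.80 over the comparisons with controls.

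Motif matches were counted over the 53 of 73 members that the RefSeq promoter table holds, in windows from 250 bases before to 50 after each start. The element of 3 heat shock units was in the windows of 4 members (Dnajb6, Hspd1, Hspe1 and Hsph1), or 7.55% of the 53, and in 0.662% of the 27025 genes of the table. The windows of Hspd1 and Hspe1 overlap and share the same stretch of units, which is thus counted for both. The core of 2 units was in 15 members (28.3%) and 17.0% of genes, and the Bag3 window held it 42 to 49 bases after the start, as GAAGTTTC. The antioxidant response element core was in 9 members (17.0%) and 14% of genes. Of the 10 members called for both guides, the antioxidant response element core was found in the windows of Dnaja2 and Hsph1. The promoter table lacks 20 members, and how many of the 10 were searched is not given here.

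The wider folding network gave few calls. In sgCul3 tumours, none of 18 HSP90 cochaperones, 12 HSP70 partners, 14 subunits of the chaperonin TRiC and prefoldin, 20 genes of folding and the unfolded protein response in the endoplasmic reticulum and 8 mitochondrial proteases passed with limma. At an unadjusted p under 0.05 these lists had 6, 0, 1, 1 and 1 genes, and edgeR called 0 in each. DESeq2 called 1, a gene of the HSP90 cochaperones, where it called 479 higher and 447 lower of all 13045 genes. In sgKeap1 tumours the prefoldin subunit Pfdn2 was higher (1.15 ± 0.28, adjusted p = 0.033) and the mitochondrial protease Afg3l2 lower (-1.41 ± 0.36, adjusted p = 0.041), 1 of 14 and 1 of 8, where 7.82% of all genes were called. Afg3l2 was also called lower for both guides (-1.18 ± 0.31, adjusted p = 0.042), where 7.56% of genes were called. Of the 18 HSP90 cochaperones limma and edgeR called 0 in sgKeap1 tumours and 0 for both guides. At an unadjusted p under 0.05 there were 8 in each, without a share of all genes to set beside them. DESeq2 called 4 and 6. Of all 13045 genes it called 1181 higher and 962 lower in sgKeap1 tumours and 1105 and 947 for both guides. Of the 12 HSP70 partners limma and edgeR called 0 in each, with 3 and 1 at an unadjusted p under 0.05, and DESeq2 called 1 and 0. In sgNrf2 tumours the stress transcription factor Ddit3 (-2.13 ± 0.32, adjusted p = 0.044) and the mitochondrial protease Clpp (-1.21 ± 0.17, adjusted p = 0.043) were lower, 1 of 20 and 1 of 8, where 4.41% of genes were called. In sgNrf2 tumours limma and edgeR called 0 HSP90 cochaperones and 0 HSP70 partners, with 4 of 18 and 4 of 12 at an unadjusted p under 0.05. DESeq2 called 2 of each, where it called 1191 higher and 1460 lower of all 13989 genes.

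The repeats of sgGFP tumours 2 and 4 show how far members differ between 2 control tumours. The difference between tumour 4 and tumour 2 in the first table and that between controls B and A in the second had a Pearson correlation of 0.87 and a Spearman correlation of 0.81 over 66 members, with the same sign for 52, and 0.81 and 0.68 over 12905 genes. By their labels these are the same tumours. Hspb8 was higher in tumour 4 by 2.32 on the log2 scale and in its repeat by 2.51, and Dnajc6 lower at -1.88 and -1.37. Hspa1a differed at -3.16 and -4.09, and Hspa1b at -2.77 and -2.19.

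**Figure D5:**
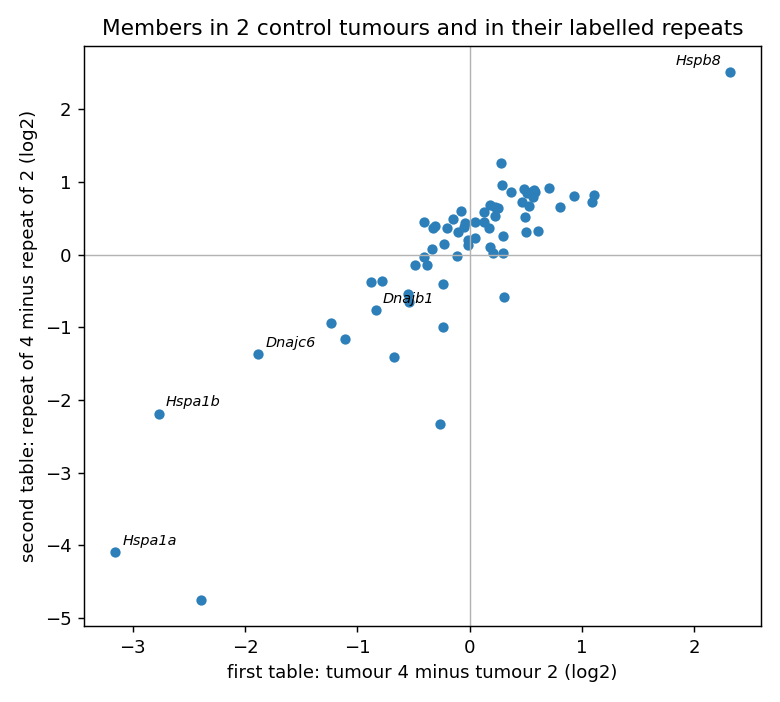
Log2 difference of each of 66 members between sgGFP tumours 4 and 2 (x axis, first table) and between controls B and A, labelled as their repeats (y axis, second table). Points lie along a rising line (Pearson correlation 0.87), with Hspb8 at the upper right and Hspa1a and Hspa1b at the lower left.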

How the data were processed

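RNA of liver tumours was extracted with a Qiagen kit and made into libraries with an Illumina TruSeq kit, per the labels' protocols. The authors deposited 2 tables whose values are a signal: gene counts from HTSeq scaled by DESeq, per the file headers and the submitters' processing notes, which also name Picard and mm10. For the aligner, annotation and versions: not given in the sources used here. Dividing by the value of 1 read gave whole reads for 100% of values (tolerance 0.1 reads), once the 1 that the first table adds to each entry was taken off. Entries for reads on no gene (3.39 to 4.58% with no feature in the second table) were left out. The tables were scaled separately, so tests stayed within a table. Levels in the text are scaled counts without the added 1, and per kb uses merged exon lengths of GENCODE M21 on GRCm38, matched by gene ID.

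The main test was limma 3.58.1 (R 4.3.3; two-sided; trended variance prior) on values log2-transformed after adding 1. It took genes whose deposited values averaged 10 or more, and p-values were Benjamini-Hochberg adjusted over the 13045 and 13989 such genes. A common spread was estimated over the first table's 3 groups. Fold changes are on this scale, which understates those of low genes. Fits of edgeR 4.0.16 and DESeq2 1.42.0 on recovered reads, other pseudocounts, filters and scalings, a replicate block, other controls and leaving out each library were alternatives, and removal of the length trend and of the added 1 was chosen after seeing the data. Scripts were tested on simulated data. Tumour numbers were checked for pairing by the correlation of deviations from group means. For numbers 1 to 3 it was 0.164, 0.175 and 0.314 between sgCul3 and sgGFP tumours. It was 0.239, 0.518 and 0.098 between sgCul3 and sgKeap1 tumours and 0.199, 0.043 and -0.094 between sgKeap1 and sgGFP tumours. Tumours of different numbers had -0.297 to 0.077 between sgCul3 and sgGFP, below the same-number values of that pair of groups. They had -0.436 to 0.264 between sgCul3 and sgKeap1 and -0.175 to 0.094 between sgKeap1 and sgGFP, which overlapped the same-number values. In the second table, deviations from a mean of 2 mirror each other, so the check could not show pairing. No pairing was established, and the main test used none. The members and lists were chosen with earlier results of these data known. The rule for named genes covers every member called, 20 textbook members, the extremes of each family, the 3 most abundant members, Keap1, Cul3, Nfe2l2 and Nqo1, and the related genes with the smallest p; not every gene it covers is described, and Dnajc13, Dnajc19 and Hspa4l were named after their values were seen.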

Additional observations from a re-analysis of the deposited data

Results flagged for a closer look

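In 7 of 66 members, 1 of the 4 sgGFP tumours stood far from the others. Normally distributed values give such a gap by chance in about 1 of 20 groups. The counts were not log-transformed and members of a tumour are not independent, so the rate for these data is not known. Tumour 2 was the one in 5 of the 7. It was high for Hspa1a (79.8, others 8.06 to 8.86), Hspa1b (207, others 21.3 to 36.4) and Dnajb1 (435.0, others 235 to 248), and low for Dnajc21 (354, others 498 to 503) and Hspa4 (2269, others 3326 to 3508). In the second table its repeat, control A, was again the higher for Hspa1a, Hspa1b and Dnajb1 and the lower for Dnajc21 and Hspa4. Tumour 3 was high for Hsph1 (1149, others 708 to 772), and tumour 4 for Dnajc17 (120.8, others 71.7 to 79.0).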

How the results depend on the processing

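Hspb8 stayed called in sgCul3, in sgKeap1 and for both guides under every alternative run. Over all 23 calls of members, 288 of the alternative fits kept the call, 151 lost it and none changed its sign. For sgCul3 the 2 calls became 1 with a mean of at least 50, equal totals, quantile normalization and the replicate block. They also became 1 with the 2 groups alone and with sgGFP tumours 1 and 3 as controls, and 8 with DESeq2. Of all 13045 genes, the main test called 176 higher and 111 lower, equal totals 158 and 82 and DESeq2 479 and 447. For sgKeap1 the 8 became 3 with equal totals, 15 with DESeq2, 5 with the 2 groups alone and 1 with sgGFP tumours 1 and 3. Of all 13045 genes, the main test called 581 higher and 439 lower, equal totals 366 and 382 and DESeq2 1181 and 962. The 2 groups alone gave 517 and 377 of 13127 genes, and sgGFP tumours 1 and 3 gave 224 and 101 of 13010. For both guides the 10 became 3, 16 and 1 with equal totals, DESeq2 and sgGFP tumours 1 and 3. The genes called higher and lower were 570 and 416 in the main test and 397 and 330, 1105 and 947, and 138 and 43 in these. For sgNrf2 the 3 became 8 with equal totals, 7 with quantile normalization and 10 with DESeq2. Of all 13989 genes, the main test called 266 higher and 351 lower and equal totals 874 and 362. Quantile normalization called 405 and 563, and DESeq2 1191 and 1460, so the counts over all genes rose as well. Without 1 library at a time, the counts ran from 1 to 2 (sgCul3), 1 to 11 (sgKeap1), 4 to 13 (both) and 0 to 14 (sgNrf2: 14 without control A, 0 without either sgNrf2 tumour); no call was made between the 2 guides. The cause of these changes was not tested. The replicate block gave 11 members for sgKeap1, 9 for both and 3 for sgNrf2. No edited tumour has the number of sgGFP tumour 4, which therefore contributes nothing to it. Over all genes the block called 146 higher and 86 lower in sgCul3, 975 and 803 in sgKeap1, 689 and 523 for both and 300 and 383 in sgNrf2. For both guides it lost Dnaja2, Dnajc22, Hspb11 and Hsph1 and gained Hspa9, Hspe1 and Dnajc15, and in sgNrf2 it lost Hsph1 and gained Hspb8. No pairing of tumours was established, and the edited tumours share only a number or letter with their controls. Medians of HSP40 and HSP70 in sgKeap1 turned from 0.15 and 0.16 to -0.05 and -0.03 with equal totals. Where a group is left with 1 sgNrf2 tumour, that tumour is assumed to vary like the controls. The levels of Dnajc6 in sgNrf2 tumours and of Hspa1a in most tumours rest on few reads.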
